A study of Mus musculus with 12 samples.

Results

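The BCL2 family regulators of apoptosis were described through 10 genes, Bcl2, Bcl2l1, Bcl2l2, Mcl1, Bak1, Bok, Bcl2l11, Bid, Bad and Bik, out of 25759 genes listed in each library. The members were chosen by gene symbol, and all 10 were found in every library. BCL2 family proteins govern the permeability of the outer mitochondrial membrane, the step that releases cytochrome c and starts the caspase cascade. Pro-survival members (Bcl2, Bcl2l1, Bcl2l2 and Mcl1) hold multi-domain effectors such as BAK1 in check, Bok encodes another multi-domain pro-apoptotic protein, and BH3-only members (Bcl2l11, Bid, Bad and Bik) act as stress sensors that bind and neutralise pro-survival proteins or engage the effectors. The BH3 domain is the short helix through which these proteins bind each other, and embryonic stem cells (ESCs) are known for a low threshold to apoptosis.

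Polyadenylated RNA of 12 libraries was sequenced from HATX3 mouse ESCs, a diploid line of haploid origin. All 4 groups carry Xist, the RNA that silences the X chromosome, under a doxycycline-inducible promoter, and induction for 48 h was compared with uninduced cells. The groups were WT uninduced and WT induced (replicates 1, 2 and 3 each), and ΔCdk8 uninduced and ΔCdk8 induced (clones 8, 11 and 15 each). The ΔCdk8 clones are independent lines with a homozygous small deletion that removes the start codon of Cdk8, the kinase of the Mediator complex, and 1 of the 3 clones carries a small insertion as well. Levels are given as TPM, reads per exon length scaled to the same total in each library, and as mean ± SD with n = 3 per group. Total reads on genes ranged from 22170087 to 60798578 per library.

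Cdk8 transcripts did not separate the genotypes. Cdk8 was at 64.2, 69.4 and 74.2 TPM in uninduced WT and at 34.4, 56.8 and 85.3 TPM in uninduced clones 8, 11 and 15. After induction it was at 51.6, 51.5 and 53.1 TPM in WT and at 33.4, 57.8 and 84.9 TPM in the clones, so that Cdk8 TPM is no check of the genotype labels. In the study the clones were characterised by sequencing of the locus, by qRT-PCR and by western blot. Reads on introns made up 70.4% to 96.4% of the reads of Cdk8, and TPM is computed from the exon reads alone. The 5 ESC markers (Pou5f1, Sox2, Nanog, Zfp42, Esrrb) were all present, with a summed level between 1393 and 2786 TPM over the 12 libraries. Single markers moved with the groups, and Nanog and Esrrb are given here. Their values do not stand for all 5 markers. The sum of the 5 was at 1680 to 1791 TPM in uninduced WT and at 1393 to 2668 TPM in uninduced ΔCdk8 cells. Pou5f1, Sox2 and Zfp42 are not given singly. Nanog was at 50.2 to 157 TPM in uninduced WT against 192 to 403 TPM in uninduced ΔCdk8 cells, and at 113 to 210.1 TPM against 232 to 407 TPM after induction. Esrrb was at 32.4 to 118 TPM in uninduced WT, 209.7 to 247 TPM in induced WT, 121 to 176 TPM in uninduced and 157 to 207 TPM in induced ΔCdk8 cells. The 4 fibroblast markers summed to at most 7.24 TPM, the 4 primitive endoderm markers to at most 7.83 TPM and the 3 trophoblast markers to at most 6.08 TPM. The 3 mesoderm markers (T, Mesp1, Eomes) separated the genotypes, at 1.85 to 3.90 TPM in uninduced WT against 4.26 to 14.2 TPM in uninduced ΔCdk8 cells and at 1.20 to 3.19 TPM against 4.82 to 8.34 TPM after induction, with 1 of the 3 reaching 1 TPM in each group. The 3 neural markers (Pax6, Sox1, Neurod1) summed to 6.44 to 7.56 TPM in uninduced WT, 13.3 to 38.7 TPM in induced WT, 0.619 to 4.25 TPM in uninduced and 0.922 to 11.1 TPM in induced ΔCdk8 cells. The part of the ESC, mesoderm and neural markers in the results below was not tested. In bulk RNA, fewer cells of a type and less RNA per cell cannot be told apart.

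The BH3-coding stretch is shown for 7 members that carry the differences described below, because this helix is the part the whole family shares. Each stretch has 42 bases of the coding strand in GENCODE M21 transcripts on GRCm38, and capitals mark the 6 codons from the conserved leucine (methionine in Bcl2l2) to the invariant aspartate. Mcl1 is read from chr3:95659424-95659465 on the forward strand, Bcl2l1 from chr2:152829694-152829735 on the reverse strand and Bcl2l2 from chr14:54884505-54884546 on the forward strand, each in the first coding exon. Bok lies on the forward strand at chr1:93686645-93689173, across an intron between the first and the second coding exon. Bid is on the reverse strand at chr6:120897286-120897327 in coding exon 3 of 5, and Bcl2l11 (chr2:128147138-128147179) and Bik (chr15:83543072-83543113) are on the forward strand in their second coding exons.
Mcl1: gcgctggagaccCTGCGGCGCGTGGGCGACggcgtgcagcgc
Bcl2l1: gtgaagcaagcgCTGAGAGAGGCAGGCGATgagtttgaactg
Bcl2l2: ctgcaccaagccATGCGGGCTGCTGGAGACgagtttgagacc
Bok: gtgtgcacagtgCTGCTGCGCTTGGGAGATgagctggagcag
Bid: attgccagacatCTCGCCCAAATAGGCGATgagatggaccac
Bcl2l11: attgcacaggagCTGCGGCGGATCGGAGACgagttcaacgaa
Bik: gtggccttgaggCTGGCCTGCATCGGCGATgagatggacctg

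The stretches share the spacing of the motif rather than its bases. Over all 10 members, the 18 bases in capitals were identical at 5 positions in the least alike pair (Bcl2l2 and Bid) and at 14 in the most alike pairs (Mcl1 with Bok and with Bcl2l11). The pattern searched was a leucine or methionine, 3 residues of any kind, a glycine or serine, an aspartate, and an acidic residue or glycine. It occurred once in each of the 10 members and in 1569 of 21760 genes with an annotated protein (7.21%), so the match describes the stretch and does not by itself mark a BH3 domain.

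Mcl1, a short-lived guardian of the outer mitochondrial membrane, was the most abundant member in every library. In uninduced WT replicates 1, 2 and 3 it was at 346, 246 and 263 TPM, and in induced WT at 313, 216 and 225 TPM. In ΔCdk8 clones 8, 11 and 15 it was at 324, 282 and 486 TPM uninduced and at 245, 229.8 and 457 TPM induced. Clone 15 lay above all other libraries in both conditions, and the remaining values overlapped between the genotypes. Mcl1 made up 55.3% ± 6.18 of the summed TPM of the 10 members in uninduced WT and 62.5% ± 4.40 in uninduced ΔCdk8 cells.

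Bcl2l1 encodes BCL-XL, a pro-survival protein anchored in the mitochondrial membrane. It was at 23.8, 19.3 and 24.9 TPM in uninduced WT and at 31.8, 24.1 and 31.4 TPM in uninduced clones 8, 11 and 15. After induction it was at 36.8, 28.7 and 32.3 TPM in WT and at 45.0, 27.4 and 37.2 TPM in the clones. Every induced WT value lay above every uninduced WT value, while the genotypes overlapped in both conditions. Bcl2, the founding member, was close to the limit of detection, with 10 to 71 reads per library and 0.0867 to 0.335 TPM, and its 4 groups overlapped.

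Bcl2l2 encodes BCL-W, a pro-survival protein. It was at 11.2, 7.73 and 7.40 TPM in uninduced WT and at 22.8, 14.5 and 23.5 TPM in uninduced clones 8, 11 and 15. Induced WT was at 10.7, 8.96 and 8.56 TPM and the induced clones were at 21.8, 14.7 and 24.2 TPM. All 6 ΔCdk8 libraries lay above all 6 WT libraries. Among all genes tested, the groups of 1 condition did not overlap for 23.1% (uninduced) and 28.7% (induced), and the share over both conditions was not counted. Only 0.671% to 4.77% of the reads assigned to Bcl2l2 were uniquely mapped, so its level is uncertain. A gene model, Gm20521, spans Bcl2l2 and its neighbour Pabpn1 on the same strand, and 4.55% to 12.9% of the reads of Pabpn1 were unique. The part of this overlap in the shared reads was not tested. For the 9 other members, 97.9% to 100% of reads were unique.

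Bak1 and Bok encode multi-domain effectors. Bak1 stayed within 46.0 to 65.4 TPM in all 12 libraries, with 54.3 ± 4.17 TPM in uninduced WT, 48.7 ± 3.01 TPM in induced WT, 60.3 ± 2.94 TPM in uninduced and 58.3 ± 7.76 TPM in induced ΔCdk8 cells. Bok was at 19.7, 36.3 and 34.0 TPM in uninduced WT and at 13.2, 22.7 and 18.3 TPM in induced WT. In the clones it was at 30.0, 21.1 and 28.8 TPM uninduced and at 29.1, 23.1 and 26.3 TPM induced. WT replicate 1 was the lowest of the WT libraries in each condition, and after induction all 3 clones lay above all 3 WT replicates.

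Bid, which links death receptors to mitochondria once it is cleaved by caspase-8, was the most abundant BH3-only gene among the 10 members. It was at 73.5, 87.4 and 87.4 TPM in uninduced WT and at 112, 134 and 146 TPM in induced WT. In clones 8, 11 and 15 it was at 47.7, 37.7 and 58.2 TPM uninduced and at 64.6, 48.0 and 66.8 TPM induced. All 6 ΔCdk8 libraries lay below all 6 WT libraries, the highest of them being the induced clone 15. Bcl2l11 encodes BIM, which binds all pro-survival proteins, and was at 21.1, 15.5 and 18.9 TPM in uninduced WT against 12.8, 13.0 and 12.6 TPM in the uninduced clones. After induction Bcl2l11 was at 20.6, 8.60 and 11.8 TPM in WT and at 8.77, 11 and 9.60 TPM in the clones. The genotypes were apart for Bcl2l11 before induction and overlapped after it.

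Bad, a sensor of survival signalling that is switched off by phosphorylation, ranged from 4.87 to 9.18 TPM and its 4 groups overlapped. Bik, a BH3-only protein of the endoplasmic reticulum, was at 3.24, 3.10 and 4.93 TPM in uninduced WT and at 2.73, 1.44 and 2.97 TPM in induced WT. In clones 8, 11 and 15 it was at 11.4, 3.31 and 10.7 TPM uninduced and at 12.7, 5.20 and 11.2 TPM induced. Clones 8 and 15 stood well above WT in both conditions, whereas uninduced clone 11 fell within the WT range. The lowest Bik value rests on 12 reads, in induced WT replicate 2.

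In the order of mean TPM over all libraries, Mcl1 (302.7 TPM) was followed by Bid (80.3 TPM), Bak1 (55.4 TPM), Bcl2l1 (30.2 TPM), Bok (25.2 TPM), Bcl2l2 (14.7 TPM), Bcl2l11 (13.7 TPM), Bad (7.43 TPM), Bik (6.07 TPM) and Bcl2 (0.214 TPM). Over the 12 libraries, neighbours in this order overlapped in their ranges, other than Mcl1 with Bid, Bak1 with Bcl2l1, and Bik with Bcl2. The order also differed between groups. Bak1 (60.3 TPM) was above Bid (47.9 TPM) and Bik (8.46 TPM) above Bad (7.63 TPM) in uninduced ΔCdk8 cells, and Bcl2l11 (18.5 TPM) was above Bcl2l2 (8.79 TPM) in uninduced WT.

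**Figure D1:**
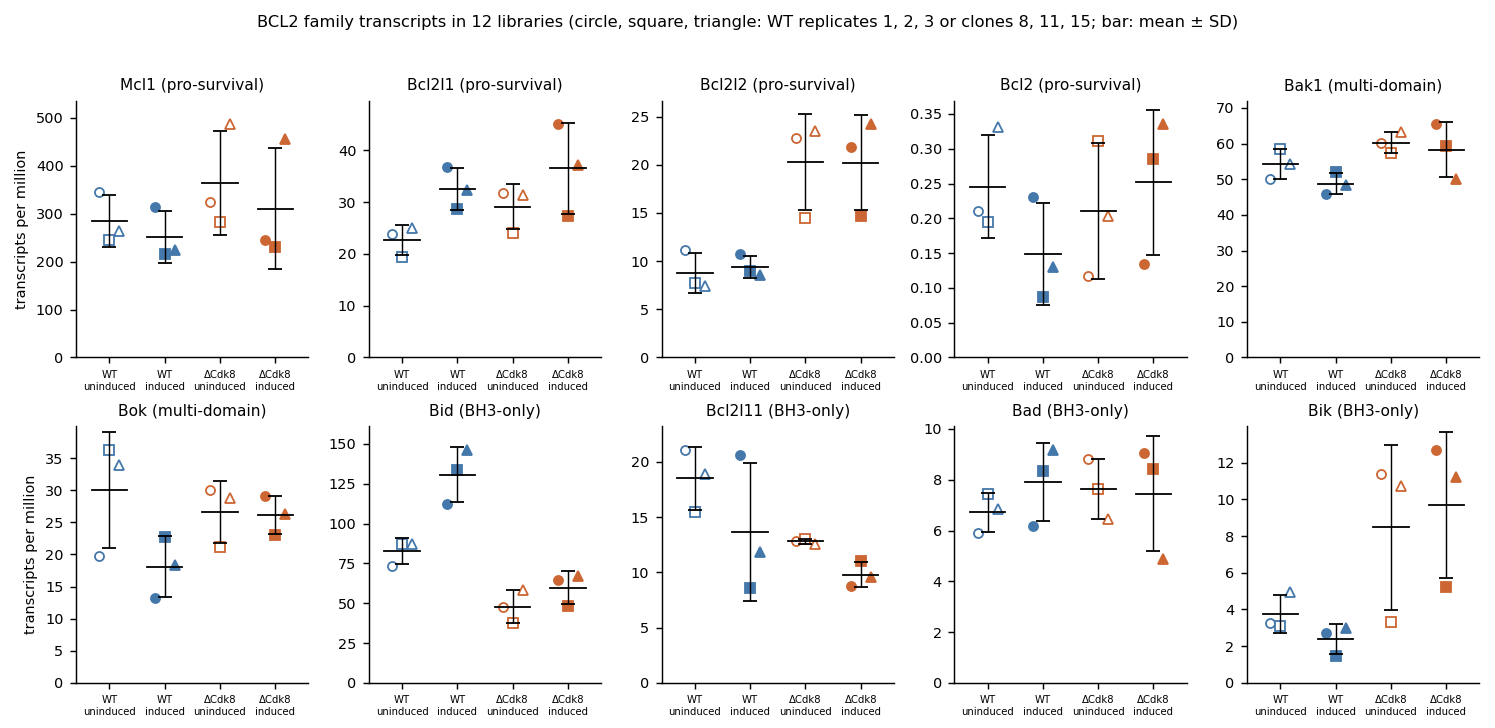
TPM of the 10 members in each library, on linear axes from 0, by group, with the mean and SD of 3 libraries. Bcl2l2 was higher and Bid lower in all 6 ΔCdk8 libraries than in any WT library, and Bik was high in clones 8 and 15.

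The uninduced comparison asked whether the family differed between ΔCdk8 and WT cells before Xist was expressed. WT stands for the parental HATX3 cells, which the paper describes as polyclonal, whereas the ΔCdk8 lines were derived as clones. Loss of Cdk8 and clonal derivation therefore cannot be told apart, here or after induction. Bid and Bcl2l11 were lower and Bcl2l2 was higher in ΔCdk8 than in WT cells at the level of unadjusted p, and no member passed the fold and adjusted p thresholds of the main test (fold above 2 and adjusted p under 0.01). At those thresholds, 0.0% of the 14646 genes tested were called in edgeR, so the thresholds do not separate the members from other genes. At an unadjusted p under 0.05, 3 of 10 members were counted against 20.4% of all genes tested. The TPM of the groups did not overlap for 3 members, Bcl2l2, Bcl2l11 and Bid, against 23.1% of all genes. The median log2 fold change of the members was 0.02 and that of all genes tested 0.03.

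Of the BH3-only members, Bid was lower by a log2 fold change of -0.86 (SE 0.16, edgeR adjusted p = 0.113), with clones at 0.577, 0.456 and 0.703 of the WT mean TPM. Bcl2l11 had a log2 fold change of -0.62 (SE 0.17, edgeR adjusted p = 0.155), and its clone ratios were the most even of the family, 0.695 ± 0.0103. Bik had a log2 fold change of 0.88 (SE 0.49, edgeR adjusted p = 0.322), with the clones split at 3.04, 0.881 and 2.83 times the WT mean. Bad was at 0.04 (SE 0.27, edgeR adjusted p = 0.943).

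Of the pro-survival members, Bcl2l2 had a log2 fold change of 1.03 (SE 0.23, edgeR adjusted p = 0.130) and was the 1 member called by DESeq2 (log2 1.01, adjusted p = 0.00314), where 2.64% of all genes were called. From its few unique reads the log2 fold change was 1.42 (SE 0.43, edgeR adjusted p = 0.167). Mcl1 was at 0.18 (SE 0.20, edgeR adjusted p = 0.610), Bcl2l1 at 0.19 (SE 0.15, edgeR adjusted p = 0.466, and log2 0.089 without WT replicate 2) and Bcl2 at -0.27 (SE 0.53, edgeR adjusted p = 0.778). Of the effectors, Bak1 was at -0.01 (SE 0.14, edgeR adjusted p = 0.975) and Bok at -0.33 (SE 0.26, edgeR adjusted p = 0.468). The differences of these 5 members and of Bad were smaller than or similar to their error. In DESeq2, Bid (log2 -0.88, adjusted p = 0.000196) had an adjusted p under 0.01 but a fold under 2, and Bcl2l11 had an adjusted p of 0.0241.

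**Figure D2:**
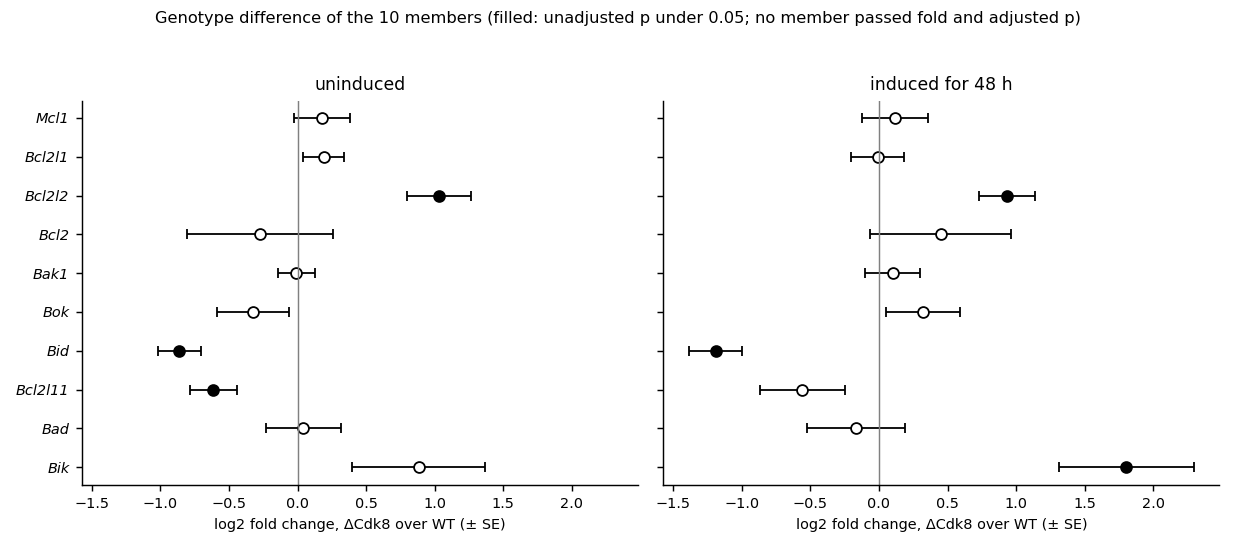
Log2 fold change of ΔCdk8 over WT with its SE from edgeR for the 10 members, without induction and after 48 h. Filled points have an unadjusted p under 0.05, namely Bcl2l2, Bid and Bcl2l11 uninduced and Bcl2l2, Bid and Bik induced.

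Genes of whole chromosomes were shifted in some clones, and those of chromosome 14 in all 3 (median ratios to WT of 1.51, 1.46 and 1.72). The members were therefore set beside the genes around them. The median ratio of clone to WT TPM over 11359 autosomal genes with at least 1 TPM was 1.09, 0.982 and 1.15 in clones 8, 11 and 15. Around Bcl2l2 on chromosome 14 (152 genes within 10 Mb), the median ratios were 1.47, 1.49 and 1.65, and Bcl2l2 itself was at 2.59, 1.65 and 2.67. In clone 11, Bcl2l2 lay near the median of its neighbours, and in clones 8 and 15 it was above them. Around Mcl1 on chromosome 3 (203 genes), the median ratios were 1.66, 1.03 and 1.71, and Mcl1 was at 1.14, 0.991 and 1.71. Mcl1 thus matched its neighbours in clones 11 and 15 and was below them in clone 8.

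Around Bid on chromosome 6 (131 genes), the median ratios were 1.18, 0.687 and 1.17, against 0.577, 0.456 and 0.703 for Bid. Bid was below its neighbours in all 3 clones, and clone 11 was low in both. Bcl2l11 was at 0.695, 0.705 and 0.684 while its 167 neighbours on chromosome 2 were at 1.04, 0.989 and 1.13. Bik was at 3.04, 0.881 and 2.83 while its 224 neighbours on chromosome 15 were at 1.13, 1.01 and 1.05. Copy number was not measured here, and the part of these regional shifts in the levels of Bcl2l2, Mcl1 and Bid was not tested.

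**Figure D3:**
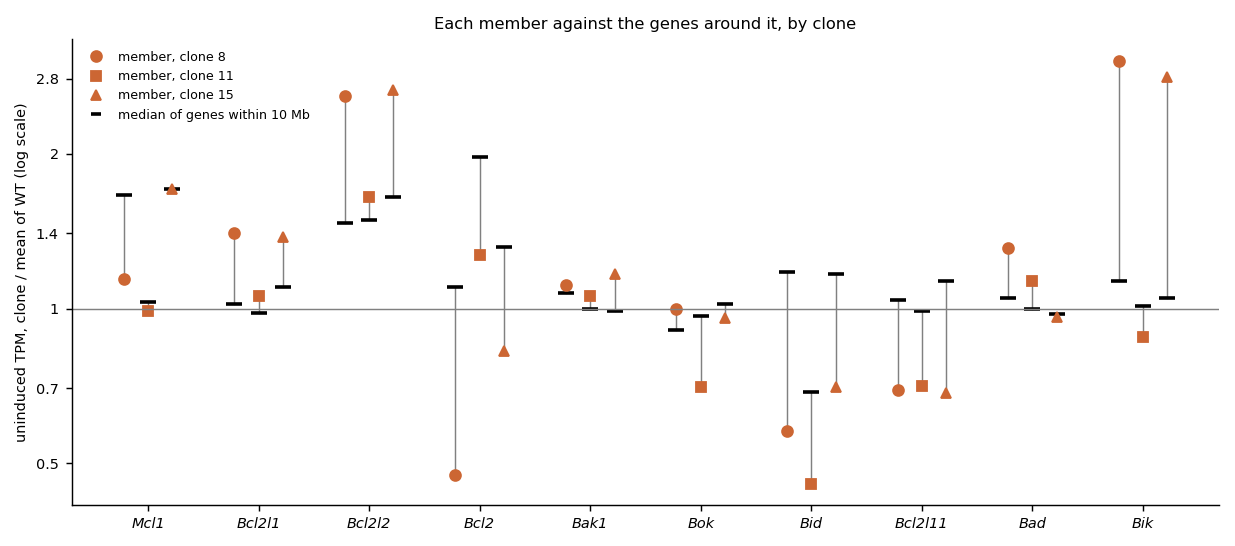
Uninduced TPM of each member in clones 8, 11 and 15 over the WT mean (symbols, log axis) and the median of the same ratio over genes within 10 Mb (bars). The bars lie between 1.47 and 1.65 for Bcl2l2, and those for Mcl1 lie between 1.66 and 1.71 in clones 8 and 15.

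Genes whose log2(TPM + 1) was most like that of Bcl2l2 over the 12 libraries, among 12131 genes, included Dcaf12 (Pearson's r = 0.992), Ctsb (r = 0.992), Rnf13 (r = 0.990) and Asah1 (r = 0.988). Ctsb lies on chromosome 14 as Bcl2l2 does, Rnf13 lies on chromosome 3, and Dcaf12 and Asah1 lie on chromosomes 4 and 8. The 12 points share genotype, clone and depth, and the correlations are a description.

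Induction of Xist in WT cells tests how the family responds as the X chromosome is silenced, a process that leads to cell loss in these cells. Bid and Bcl2l1 were higher after induction and Bok was lower in the fit that pairs the libraries of 1 replicate number. In edgeR without a block, as in DESeq2, 0 of 10 members passed both thresholds, against 1.16% of 14006 genes in edgeR and 4.73% in DESeq2. In that edgeR fit, 2 members had an unadjusted p under 0.05, against 21.2% of all genes. Without WT replicate 1 this count was 5, adding Mcl1, Bok and Bcl2l11 (log2 -0.70, SE 0.17, edgeR adjusted p = 0.0344), and 39.4% of 14196 genes in that fit had an unadjusted p under 0.05. In edgeR without a block, Bid had a log2 fold change of 0.73 (SE 0.15, adjusted p = 0.0452, where 4.56% of all genes had an adjusted p under 0.05) and Bcl2l1 of 0.55 (SE 0.14, adjusted p = 0.0749).

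With the replicate number as a block, 3 members had an adjusted p under 0.05 in edgeR at any fold, against 23.0% of all genes. They were Bid (log2 0.72, adjusted p = 0.00364), Bcl2l1 (log2 0.55, adjusted p = 0.00689) and Bok (log2 -0.62, SE 0.10, adjusted p = 0.0124, against 0.303 without the block). In TPM, Bid was 1.53, 1.53 and 1.67 times its uninduced level in replicates 1, 2 and 3, and Bok was at 0.610 ± 0.0657 of it. Bik (log2 -0.63, SE 0.43, edgeR adjusted p = 0.457) and Bcl2 (log2 -0.55, SE 0.40, edgeR adjusted p = 0.486) did not pass with or without the block. The other members lay between -0.40 and 0.26 in the unblocked fit.

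Across the 3 WT pairs, 8 of 10 members moved the same way in TPM, against 57.5% of all genes tested. Bcl2l1, Bid and Bad were higher in every pair, and Mcl1, Bak1, Bok, Bcl2l11 and Bik were lower. The neural markers and Esrrb were also higher in induced than in uninduced WT libraries, as given above, and their part in these values was not tested.

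In ΔCdk8 cells, Bid and Bcl2l1 were higher after induction, as in WT, in the fit that pairs the libraries of 1 clone. No member passed the thresholds in edgeR or DESeq2 and 0 of 10 had an unadjusted p under 0.05 in edgeR (1 without clone 11, Bid, where 4.08% of all genes had such a p), where 0.0% of 14832 genes were called in edgeR and 0.243% in DESeq2, and 2.64% had such a p. The log2 fold changes ranged from -0.35 (Bcl2l11) to 0.41 (Bid). With the clone as a block, 4 members had an adjusted p under 0.05 in edgeR, against 11.8% of all genes. They were Bid (log2 0.41, adjusted p = 0.00121), Bcl2l11 (log2 -0.36, adjusted p = 0.00942), Bcl2l1 (log2 0.33, adjusted p = 0.0139) and Mcl1 (log2 -0.24, adjusted p = 0.0391).

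Across the 3 clones, 5 of 10 members moved the same way in TPM, against 43.5% of all genes. Bcl2l1, Bid and Bik were higher in every clone and Mcl1 and Bcl2l11 lower. Bid was 1.35, 1.27 and 1.15 times its uninduced level in clones 8, 11 and 15, and the test of the difference from WT is given below. Bok was at 0.992 ± 0.0926 of its uninduced level, and Bik at 1.11, 1.57 and 1.05.

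**Figure D4:**
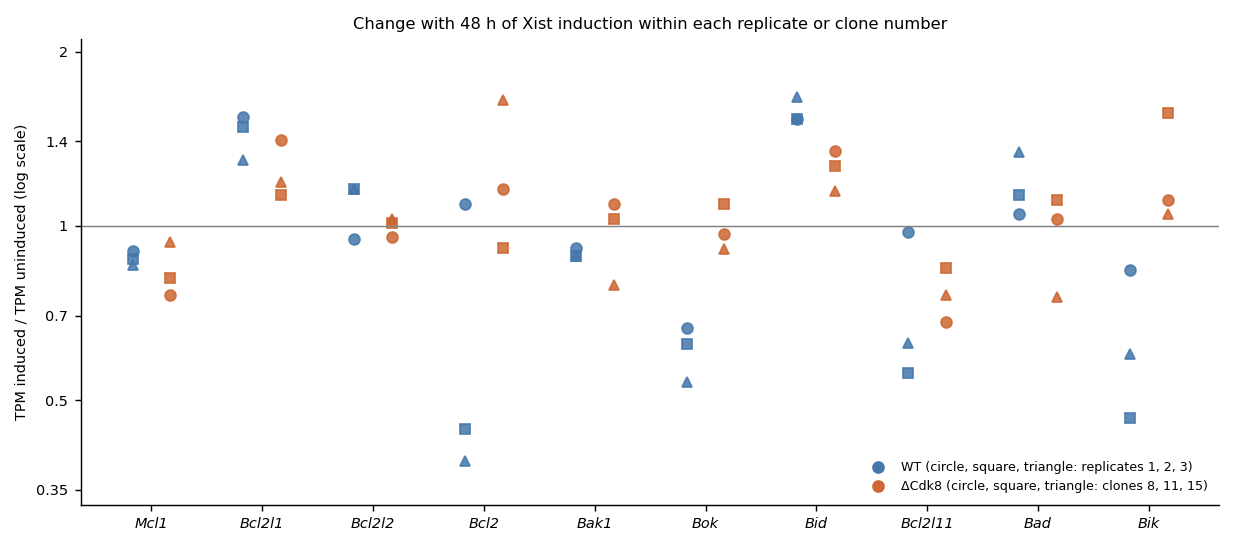
Ratio of induced to uninduced TPM (log axis) for each WT replicate and each ΔCdk8 clone. Bid and Bcl2l1 were above 1 in all 6 pairs, and Bok and Bik were below 1 in all 3 WT pairs, with the ΔCdk8 clones near 1 for Bok and above 1 for Bik.

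Whether induction acted differently in the genotypes was asked with an interaction term fitted to the 12 libraries. No member passed in DESeq2 or in edgeR without a block, where 0.0% of 15137 genes were called in edgeR and 0.218% in DESeq2, and 0 of 10 members had an unadjusted p under 0.05, against 3.88% of all genes. Without WT replicate 1 the unadjusted count was 1, Bok (log2 0.69, SE 0.25, edgeR adjusted p = 0.773), where 5.24% of all genes in that fit had such a p. With the block, Bok was the 1 member with an adjusted p under 0.05 (log2 0.66, SE 0.13, edgeR adjusted p = 0.0203, against 0.9999 without it), where 6.01% of all genes had such a p. Bik had a difference of 0.94 (SE 0.69, edgeR adjusted p = 0.9999), and 1.02 with the block (SE 0.33, edgeR adjusted p = 0.101). The difference for Bcl2 was 0.75 (SE 0.73, edgeR adjusted p = 0.9999). For Bid it was -0.31 (SE 0.24) and -0.30 with the block (SE 0.10, edgeR adjusted p = 0.123), and the other members lay between -0.18 and 0.13 without the block.

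Comparing the induced groups puts the genotypes side by side once Xist is on. Bid was lower and Bcl2l2 and Bik were higher in ΔCdk8 cells at an unadjusted p under 0.05. These 3 of 10 members compare with 25.9% of 14143 genes, and at the fold and adjusted p thresholds 0 members and 0.0% of genes were called. The TPM of the groups did not overlap for 4 members (Bcl2l2, Bok and Bik higher, Bid lower), against 28.7% of all genes.

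Bid had a log2 fold change of -1.19 (SE 0.20, edgeR adjusted p = 0.0534) and was at 0.494, 0.367 and 0.511 of the WT mean in clones 8, 11 and 15. Bik had a log2 fold change of 1.80 (SE 0.49, edgeR adjusted p = 0.0879), with all 3 clones above WT at 5.32, 2.18 and 4.70 times its mean. Both passed the thresholds in DESeq2 (Bid log2 -1.21, adjusted p = 1.6e-05, and Bik log2 1.78, adjusted p = 0.00902), where 5.81% of genes were called. Bcl2l2 had a log2 fold change of 0.94 (SE 0.20, edgeR adjusted p = 0.0615) and Bcl2l11 of -0.56 (SE 0.31, edgeR adjusted p = 0.280), which was -0.18 without WT replicate 1. The remaining members lay between -0.17 and 0.45. The comparisons above share samples, so their values for a member are not independent of each other.

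The make-up of the family in each library followed from these levels. BH3-only members held 18.7%, 23.5% and 23.5% of the summed TPM of the 10 members in uninduced WT replicates 1, 2 and 3, and 25.2%, 31.6% and 33.9% after induction. In uninduced clones 8, 11 and 15 they held 14.7%, 13.4% and 12.2%, and after induction 18.9%, 17% and 13.5%. The share was higher after induction in each of the 6 pairs, and each ΔCdk8 share lay below every WT share of the same condition. Bid made up 74.0% ± 3.10 of the BH3-only TPM in uninduced WT, 84.3% ± 4.56 in induced WT, 62.2% ± 3.65 in uninduced and 68.8% ± 3.19 in induced ΔCdk8 cells. Pro-survival members held 61.5% ± 6.35 and 56.6% ± 6.55 in uninduced and induced WT, and 71.2% ± 3.34 and 67.1% ± 7.23 in ΔCdk8 cells. These shares describe the 10 members only and depend on that choice. Other BH3-only genes, such as Pmaip1, are not counted in them. Bax, the effector that works beside BAK1, is not among the members either and was named here after its values were seen. It was at 297, 381 and 431 TPM in uninduced WT replicates 1, 2 and 3 and at 379, 507 and 583 TPM after induction, above Mcl1 in 5 of these 6 libraries. In clones 8, 11 and 15 it was at 146, 310.4 and 115 TPM uninduced and at 138, 335 and 82.9 TPM induced. Uninduced clone 11 lay within the uninduced WT range, and induced clone 11 lay below every induced WT library. Clones 8 and 15 lay below every WT library in both conditions. The induced groups thus did not overlap for Bax, as for 28.7% of all genes tested. Bax had a log2 fold change of -1.05 (SE 0.42, edgeR adjusted p = 0.226) between the uninduced and of -1.50 (SE 0.53, edgeR adjusted p = 0.136) between the induced genotypes. With Bax counted, the multi-domain share would be larger and the other shares smaller.

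**Figure D5:**
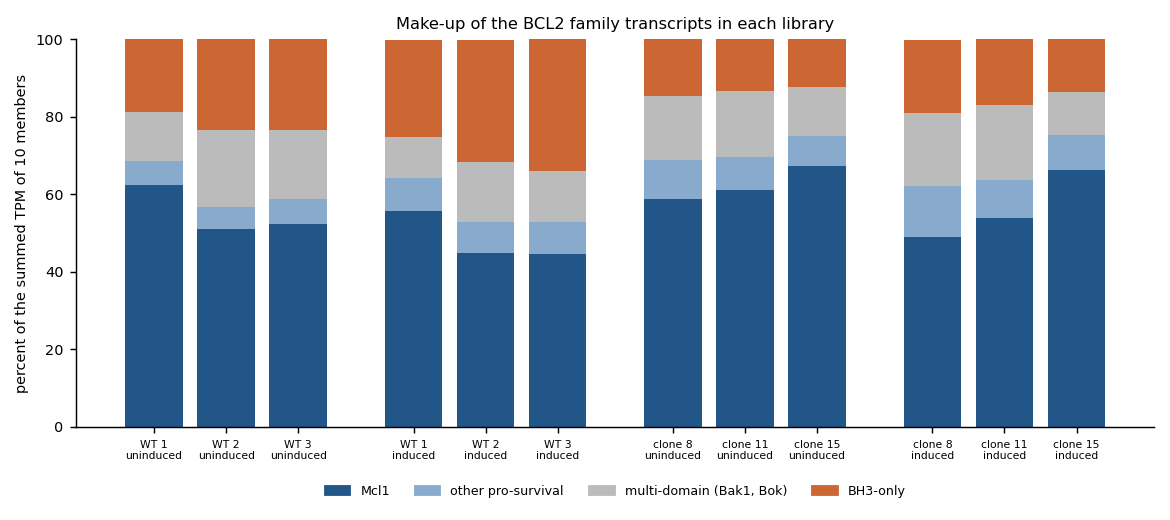
Share of Mcl1, the other pro-survival members, the multi-domain members and the BH3-only members in the summed TPM of the 10 members, 1 bar per library. The BH3-only share ranged from 12.2% to 14.7% in uninduced ΔCdk8 and from 25.2% to 33.9% in induced WT libraries.

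A list of 44 other apoptosis genes was counted beside the members, of which 39 or 40 were tested in each comparison. In the uninduced comparison, 8 were higher and 6 lower in ΔCdk8 cells at an unadjusted p under 0.05 (14 of 39, against 20.4% of all genes) and edgeR called none (DESeq2 called 1, and 2.64% of all genes). Without WT replicate 3 the counts were 3 and 2 (1429 of 15050 genes in all had such a p). Without WT replicate 1 they were 10 and 7 (4345 of 15133 genes). Genes of the list with the smallest p in the main fit were, among those higher, Bnip3l, a mitophagy receptor (log2 1.12, SE 0.26, edgeR adjusted p = 0.131), Tnfrsf10b, the TRAIL receptor (log2 0.77), and Tradd, an adaptor of death receptors (log2 1.48). Pmaip1, which encodes the BH3-only protein NOXA (log2 -0.90), Cycs, encoding cytochrome c (log2 -0.57), and Casp2 (log2 -0.70) were lower. Of the genes higher at that p, Bnip3l, Tnfrsf10b and Vdac2 lie on chromosome 14, and Bcl2l15, Casp6 and Fbxw7 on chromosome 3. Tradd and Casp8 lie on chromosomes 8 and 1. The part of the regional shifts of chromosomes 14 and 3 in these values, before or after induction, was not tested. After induction, 9 were higher and 7 lower in ΔCdk8 cells at an unadjusted p under 0.05 (16 of 39, against 25.9% of all genes), and edgeR called none (DESeq2 called 6, and 5.81% of all genes). Without WT replicate 3 the counts were 4 and 4 (1956 of 14492 genes in all). Without clone 11 they were 10 and 10 (5591 of 14636 genes). Smallest in p in the main fit were Aifm1 (log2 1.22), Xiap (log2 1.20) and Bnip3l (log2 0.75), which were higher, and Pmaip1 (log2 -1.24), Apaf1 (log2 -1.39) and Fas, which were lower. Fas had 0, 5 and 2 reads in induced clones 8, 11 and 15 and 50, 17 and 49 reads in induced WT, too few for a firm fold.

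With Xist induction in WT cells, 5 of 39 genes were higher and 7 lower at an unadjusted p under 0.05, against 21.2% of all genes, and 1 was called, against 1.16%. Without WT replicate 1 the unadjusted counts were 8 and 10, where 39.4% of all genes had such a p. Without WT replicate 2 they were 3 and 2, where 1338 of 14397 genes did. The gene called in the main fit was Aifm1, an X-linked gene for a mitochondrial flavoprotein, at 89.5, 76.4 and 73.6 TPM uninduced and 21.1, 24.8 and 16.8 TPM induced (log2 -1.91, SE 0.17, edgeR adjusted p = 0.00315). Without WT replicate 2 or 3 the adjusted p of Aifm1 in edgeR was 0.114 or 0.106 with a log2 fold change of -2.09 or -1.87, and 0 genes of the list were called. In those edgeR fits 0.0% of all genes were called, and 1338 or 1247 genes had an unadjusted p under 0.05. The other X-linked genes of the list were Xiap, an inhibitor of caspases (log2 -1.47, edgeR adjusted p = 0.0125), Usp9x, a deubiquitinase of MCL1 (log2 -0.48, edgeR adjusted p = 0.124), and Huwe1, a ubiquitin ligase of MCL1 (log2 -0.88, edgeR adjusted p = 0.206).

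Among autosomal genes, Apaf1, the scaffold of the apoptosome, had a log2 fold change of 1.21 (edgeR adjusted p = 0.0265), going from 13.8, 10.9 and 13.9 TPM to 36.6, 21.0 and 30.0 TPM. Fbxw7, a ubiquitin ligase subunit for MCL1, was at 0.76 (edgeR adjusted p = 0.0264) and Fas, a death receptor, at 2.83 (edgeR adjusted p = 0.0562), with Fas at 1, 7 and 14 reads in uninduced WT and at or below 1.34 TPM throughout. With the replicate block, 3 genes were called, against 3.95% of all genes, namely Aifm1, Xiap (log2 -1.48, edgeR adjusted p = 0.00184) and Apaf1 (log2 1.19, edgeR adjusted p = 0.0014).

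In ΔCdk8 cells, induction gave 0 genes higher and 4 lower at an unadjusted p under 0.05, against 2.64% of all genes, and none was called in edgeR or DESeq2. Aifm1 (log2 -0.87), Huwe1 (log2 -0.49) and Bnip3 (log2 -1.66) had the smallest p among those lower. Tnfrsf10b (log2 0.29), Hrk (log2 0.50) and Apaf1 (log2 0.25) had the smallest p among those higher and did not reach p under 0.05. With the clone as a block, Bnip3, a hypoxia-responsive mitophagy receptor, was called (log2 -1.73, edgeR adjusted p = 8.94e-09), where 1.4% of all genes were. In WT, Bnip3 was also lower in all 3 pairs (log2 -1.655, SE 0.67, edgeR adjusted p = 0.219 without a block). The difference of induction between genotypes was -0.002 for Bnip3 (SE 0.92, without a block). The uninduced level of Bnip3 ranged from 57.4 to 378 TPM in WT and from 109.9 to 361 TPM in the clones.

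For the difference of induction between genotypes, 2 of 40 genes were higher and 3 lower at an unadjusted p under 0.05, against 3.88% of all genes, and none was called in edgeR without the block (DESeq2 called 1). With the replicate block, Aifm1 (log2 1.06, edgeR adjusted p = 0.00332) and Xiap (log2 1.06, edgeR adjusted p = 0.00567) were called, against 0.998% of all genes, with induced levels of 51.6 to 53.0 TPM for Aifm1 and 14.6 to 20.8 TPM for Xiap in the clones. In induced WT, Xiap was at 8.45, 7.23 and 5.01 TPM. Cycs (log2 0.45), Fbxw7 (log2 -0.75), Apaf1 (log2 -0.94) and Fas (with 0 to 5 reads in the induced clones) had the next smallest p in their directions, and in edgeR with the block the adjusted p was 0.00567 for Fbxw7 and 0.00514 for Apaf1, both with folds under 2.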

How the data were processed

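RNA of the study was sequenced at the Functional Genomics Center Zürich from stranded poly(A) libraries (HiSeq 4000, single-end). Reads were aligned without adapter trimming in the CLC Genomics Workbench, and GRCm38 and mm10 are the builds in the submitters' processing notes. Each library has 1 table, in which the deposited counts are reads not normalized and the authors also give TPM values. Samples were grouped by the genotype and induction labels.

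Members and lists were chosen with earlier results of these data known. Total gene reads were tested in R 4.3.3 with edgeR 4.0.16 (TMM, filterByExpr with minimum count 10 and minimum total 15, quasi-likelihood F test, Benjamini-Hochberg over all genes tested, two-sided). A call needs a fold above 2 and an adjusted p under 0.01. TPM ratios used no pseudocount. The steps were tested on simulated data that held no clone, pair or regional effect and less spread than the main fits. That test does not show how the steps perform on these data. An exact permutation test of 3 against 3 samples cannot give p below 0.1. No source states that WT samples of 1 number share a culture, so p-values measure the spread between these samples.

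Induced and uninduced libraries were paired by the number in their titles. Deviations from the group means over 15137 genes correlated in every pair of the same number (WT r = 0.421 to 0.613, ΔCdk8 r = 0.739 to 0.840), and at -0.519 to 0.263 (WT) and -0.622 to 0.056 (ΔCdk8) between numbers. Blocked values are printed for members whose adjusted p crossed 0.05 and for other genes whose call changed.

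All members have TPM in every library. A fold change is printed for every member in the uninduced comparison, and elsewhere for members with unadjusted p under 0.05 or an absolute log2 of at least 0.5, with the range of the rest. Of the other apoptosis genes, those called and up to 3 per direction with the smallest p are named, besides the X-linked genes of the list, named after their values were seen. Of the 5 genes most like Bcl2l2 by Pearson's r, 1 is not reported here. Alternatives were DESeq2 1.42.0, other size factors, no count filter, exon or unique reads, all 12 libraries in 1 fit, the block and leaving out each replicate. Sequences came from GENCODE M21 transcripts on GRCm38, searched for the motif with Biopython 1.88.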

Additional observations from a re-analysis of the deposited data

Results flagged for a closer look

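Bok and Bik are listed because of their values after induction in the 2 genotypes. Neither passed the fold and adjusted p thresholds of the report in a test of the difference. Bok had a difference of induction of 0.66 on the log2 scale (edgeR with the replicate block, adjusted p = 0.0203, under 0.05 but not under 0.01), and its TPM was lower in all 3 WT pairs and on both sides of 1 in the clones. Without the block the adjusted p of Bok in edgeR was 0.9999. Bik moved lower in all 3 WT pairs and higher in all 3 clones, with a log2 difference of 0.94 that did not reach an adjusted p under 0.05 in edgeR (adjusted p = 0.9999, and 0.101 with the block).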

How the results depend on the processing

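In the edgeR fits of the report no member passed both thresholds, with 0 members also when each replicate or clone was left out. DESeq2 called 1 member in the uninduced comparison (Bcl2l2) and 2 in the induced comparison (Bid and Bik), and edgeR with all 12 libraries in 1 fit called 1 in the latter (Bid). At an adjusted p under 0.05 without a fold minimum, 1 member (Bid) was counted in WT induction, as were 639 of 14006 genes in all (4.56%). Of the other apoptosis genes, WT induction gave 1 call in the main fit, 0 to 2 with a replicate left out, 4 at the looser threshold, 4 in DESeq2, 2 without the count filter, 2 with all 12 libraries in 1 fit and 3 with the replicate block. The block gave 1 call in ΔCdk8 induction and 2 in the difference of induction, for which DESeq2 gave 1. DESeq2 called 1 in the uninduced and 6 in the induced comparison, and all 12 libraries in 1 fit called 3 in the latter. The block changed no other call. Uninduced differences near 0 turned sign when 1 library was left out, with log2 ranges of -0.79 to 0.060 for Bcl2 (the highest without clone 8), -0.013 to 0.34 for Mcl1 (the lowest without clone 15), -0.069 to 0.048 for Bak1 and -0.067 to 0.19 for Bad. Bak1 was at 0.0043 in exon reads. Values with no call that moved by over 1.5 times included Bcl2l11 in the induced comparison (-0.80 to -0.18, the latter without WT replicate 1), Bok uninduced (-0.56 to -0.17), Bcl2l1 uninduced (0.089 without WT replicate 2, up to 0.24), Bcl2 in WT induction (-0.93 to -0.24) and in the difference of induction (0.43 to 1.09). The causes were not tested. Of the other values for members, 263 kept direction and side of the threshold and 4 became significant, and for the other genes 343 did, 21 became significant and 2 lost it. Over all genes, calls in WT induction were 21 higher and 141 lower in the main fit, 222 and 440 in DESeq2 and 206 and 347 with the block, and in the uninduced comparison 0 in edgeR and 386 in DESeq2. Low reads limit Bcl2 (10 to 71 reads) and Bik, and shared reads limit Bcl2l2.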
